A study of Homo sapiens with 4 samples.

Results

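Messages for the nuclear-encoded subunits of oxidative phosphorylation were followed in PANC-1 cells, an established line of human pancreatic ductal adenocarcinoma, and in the RNA recovered from those cells with an antibody against NSUN2, an enzyme that methylates cytosines in RNA. Members were the protein-coding genes of the authors' table whose symbols follow the naming of the subunits: NDUFA, NDUFB, NDUFC, NDUFS and NDUFV with a number, SDHA to SDHD, UQCR, COX4 to COX8, and ATP5. The rule found 81 of the 24483 genes, 37 of complex I, 4 of complex II, 9 of complex III, 12 of complex IV and 19 of complex V. It reads symbols only and uses no measured value, though the set was chosen with earlier results of these data known. The acyl carrier subunit NDUFAB1, cytochrome c1 (CYC1) and the electron carrier CYCS fall outside it, and the inhibitor ATP5IF1, the supercomplex factor COX7A2L, the retrocopy UQCRHL and NDUFA4, now often placed in complex IV, fall inside it.

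The 4 libraries were a lactate IP and a lactate input from cells given 30 mM sodium lactate for 24 h, and a vehicle IP and a vehicle input from cells given ddH2O for 24 h. The cells of all 4 groups were wild-type PANC-1 in medium with 10% serum, IP stands for the RNA immunoprecipitated with NSUN2 over 4 h, and input is RNA of the lysate before that step. Each group had 1 library, so every difference below is between libraries, has no replicate error and was not tested. Lactate was given as its sodium salt and the vehicle was ddH2O, so lactate, sodium and added solute cannot be told apart. No control-antibody library was analysed here, so RNA held by NSUN2 and RNA carried through the precipitation in other ways cannot be told apart, and less RNA per cell cannot be told apart from fewer cells.

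Oxidative phosphorylation takes place in the inner mitochondrial membrane. Complexes I and II pass electrons from NADH and succinate to ubiquinone, complex III passes them to cytochrome c and complex IV to oxygen, and complex V, the ATP synthase, uses the proton gradient built up on the way to make ATP. Most subunits are encoded in the nucleus and imported, and the mitochondrial genome encodes a few core subunits of every complex but complex II, so the messages of both genomes have to be matched. Lactate can serve as a fuel: its oxidation to pyruvate yields NADH. The transcription factors NRF1 and GABP (NRF2) are known activators of many of the nuclear subunit genes.

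Because most members moved to the same side of the median gene between the inputs, the sequence before their start sites was examined. RefSeq promoters (GRCh38.p14) matched 66 of the 81 members by symbol, and the 250 bases before each start were searched on both strands for an NRF1 core (GCATGCGC, reverse GCGCATGC), an ETS core bound by GABP (CCGGAAG, reverse CTTCCGG) and a YY1 core (AAGATGGC, reverse GCCATCTT), of which the GABP and YY1 cores can overlap by the letters AAG; in the windows shown they do not. The 3 members with the lowest and the 2 with the highest change between the inputs are shown 5′ to 3′ on the strand of the gene, with matches in capitals. ATP5F1E lies at chr20:59032336-59032585 on the minus strand, ATP5PF at chr21:25735055-25735304 on the minus strand, NDUFA1 at chrX:119871582-119871831 on the plus strand, UQCR11 at chr19:1605463-1605712 on the minus strand and NDUFS1 at chr2:206159445-206159694 on the minus strand. The ATP5PF window lies before the start RefSeq's promoter table uses but inside the full span of the gene, which has a start farther upstream.
ATP5F1E: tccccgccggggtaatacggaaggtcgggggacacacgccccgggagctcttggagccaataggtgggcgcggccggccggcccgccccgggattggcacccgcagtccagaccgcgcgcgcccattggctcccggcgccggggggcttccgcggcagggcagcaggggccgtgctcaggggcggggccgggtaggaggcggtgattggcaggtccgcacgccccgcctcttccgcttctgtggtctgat
ATP5PF: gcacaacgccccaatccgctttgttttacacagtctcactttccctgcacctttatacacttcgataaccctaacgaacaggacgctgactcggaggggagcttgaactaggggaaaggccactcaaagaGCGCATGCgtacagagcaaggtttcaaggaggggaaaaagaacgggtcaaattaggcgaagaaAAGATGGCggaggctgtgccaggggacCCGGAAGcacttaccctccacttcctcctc
NDUFA1: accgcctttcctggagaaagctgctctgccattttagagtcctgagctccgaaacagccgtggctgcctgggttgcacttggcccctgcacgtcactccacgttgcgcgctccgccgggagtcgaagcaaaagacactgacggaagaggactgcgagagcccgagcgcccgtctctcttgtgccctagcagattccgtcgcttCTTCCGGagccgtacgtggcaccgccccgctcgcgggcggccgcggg
UQCR11: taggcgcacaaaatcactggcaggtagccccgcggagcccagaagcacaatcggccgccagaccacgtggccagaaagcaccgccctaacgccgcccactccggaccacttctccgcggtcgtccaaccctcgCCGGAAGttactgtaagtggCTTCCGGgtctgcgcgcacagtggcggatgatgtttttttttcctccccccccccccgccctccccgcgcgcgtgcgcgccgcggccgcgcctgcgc
NDUFS1: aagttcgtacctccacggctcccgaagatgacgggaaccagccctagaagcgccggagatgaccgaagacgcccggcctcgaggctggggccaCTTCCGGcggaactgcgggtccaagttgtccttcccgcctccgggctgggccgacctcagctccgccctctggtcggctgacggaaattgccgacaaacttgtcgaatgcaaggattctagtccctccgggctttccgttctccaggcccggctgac

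The NRF1 core stood in 12 of the 66 windows (18.2%), against 2.81% of 27305 RefSeq promoters, and the GABP core in 17 (25.8%), against 8.82%. Those promoters, 1 per symbol, were not limited to protein-coding or expressed genes, while all members are protein-coding, so the shares are not like for like. The YY1 core stood in 1 window (1.52%), that of ATP5PF, against 1.37% of all promoters. ATP5PF carried all 3 cores, NDUFA1 and NDUFS1 carried 1 GABP core each, UQCR11 carried it on both strands, and ATP5F1E carried none of these letters. Between the inputs the median was −0.50 (log2 difference from the median gene) in 11 measured members with the NRF1 core and −0.36 in 46 without it, and −0.34 in 16 with the GABP core and −0.40 in 41 without it; neither difference was tested. Both highest members and 2 of the 3 lowest members shown here carried the GABP core.

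The deposited unit was FPKM, a fragment number scaled to gene length and library size, and the whole reads behind it were recovered. Library totals were 15189967 reads in the lactate IP, 11175432 in the lactate input, 13620414 in the vehicle IP and 17626197 in the vehicle input. Nuclear genes took 2112583, 2339175, 4125858 and 5511705 of them in the same order of libraries, so the median nuclear gene has a lower deposited FPKM after lactate whatever its message did. Gene differences are therefore given as log2 ratios of FPKM + 1 minus the median of all genes with FPKM of at least 1 in a compared library, and a gene past 1 or −1 on that scale is called 2-fold higher or lower. That median was −0.43 between the inputs, −0.74 between the IPs, −0.10 for IP over input in lactate cells and 0.44 in vehicle cells. Intervals beside a gene are 95% intervals on its log2 ratio of reads, scaled by median ratios of nuclear genes, and cover counting error only; as reads carry no added 1 and another centre, a value on FPKM + 1 can fall outside its interval. Of 8 ductal and PANC-1 markers, 6 were at FPKM of at least 1 in each IP and 7 in each input, while the measured markers of neurons and Schwann cells (3 genes), endothelium (2) and immune cells (1) were all under 1 and COL1A1 was the single fibroblast marker of 3 at 1 or more.

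Members reached FPKM 1 in 66 of 81 cases in the lactate IP, 69 in the lactate input, 71 in the vehicle IP and 71 in the vehicle input. The median member stood at FPKM 3.71, 7.58, 9.90 and 14.0 in the same libraries. The median of all protein-coding genes with FPKM of at least 1 was 2.44 in the lactate IP, 2.98 in the lactate input, 3.33 in the vehicle IP and 3.51 in the vehicle input, below the members' median in each library. NDUFA9, NDUFA7, NDUFA13, NDUFS7, NDUFV2, COX6B2 and ATP5MGL stayed under FPKM 1 in all 4 libraries and entered no comparison. COX6B2, the testis form of COX6B, was listed at 0 in the lactate input and the vehicle IP and had 1 read in the lactate IP and 3 in the vehicle input. NDUFV2 and NDUFS7 are core subunits without which complex I does not work, and NDUFV2 had 0, 3, 2 and 4 reads in the lactate IP, lactate input, vehicle IP and vehicle input. The pseudogene NDUFV2P1 had 15, 23, 37 and 86 reads in the same libraries, so reads of the family were listed mainly under the pseudogene.

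NDUFA1, a small X-linked accessory subunit needed to assemble the membrane arm of complex I, had the highest FPKM of all members in each library. Its FPKM was 116 in the lactate IP, 575 in the lactate input, 721 in the vehicle IP and 1654 in the vehicle input. Among 14455 nuclear protein-coding genes it ranked 13th, 7th, 2nd and 4th by FPKM in these libraries. The recovered gene length was 421 bp, and its reads numbered 744, 2707, 4136 and 12276, so its FPKM rests on a short model as well as on many reads. In the lactate IP ATP5F1B was next at FPKM 74.8 and had more reads, 2544. NDUFS5, another accessory subunit, was next in complex I, at FPKM 48.8 in the lactate IP, 89.7 in the lactate input, 167 in the vehicle IP and 176 in the vehicle input. COX8A, the smallest nuclear subunit of cytochrome c oxidase, was at 19.99, 93.8, 64.5 and 150 in the same libraries, and COX6B1, on the cytochrome c side of that complex, at 16.2, 44.2, 49.0 and 117. UQCRH, the hinge protein of complex III, had 19.2 in the lactate IP, 83.4 in the lactate input, 35.6 in the vehicle IP and 104 in the vehicle input. In complex V the membrane subunit ATP5ME stood at 51.8, 51.6, 202 and 103 and coupling factor 6 (ATP5PF) at 7.87, 34.1, 64.0 and 102 in the lactate IP, lactate input, vehicle IP and vehicle input.

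**Figure D1:**
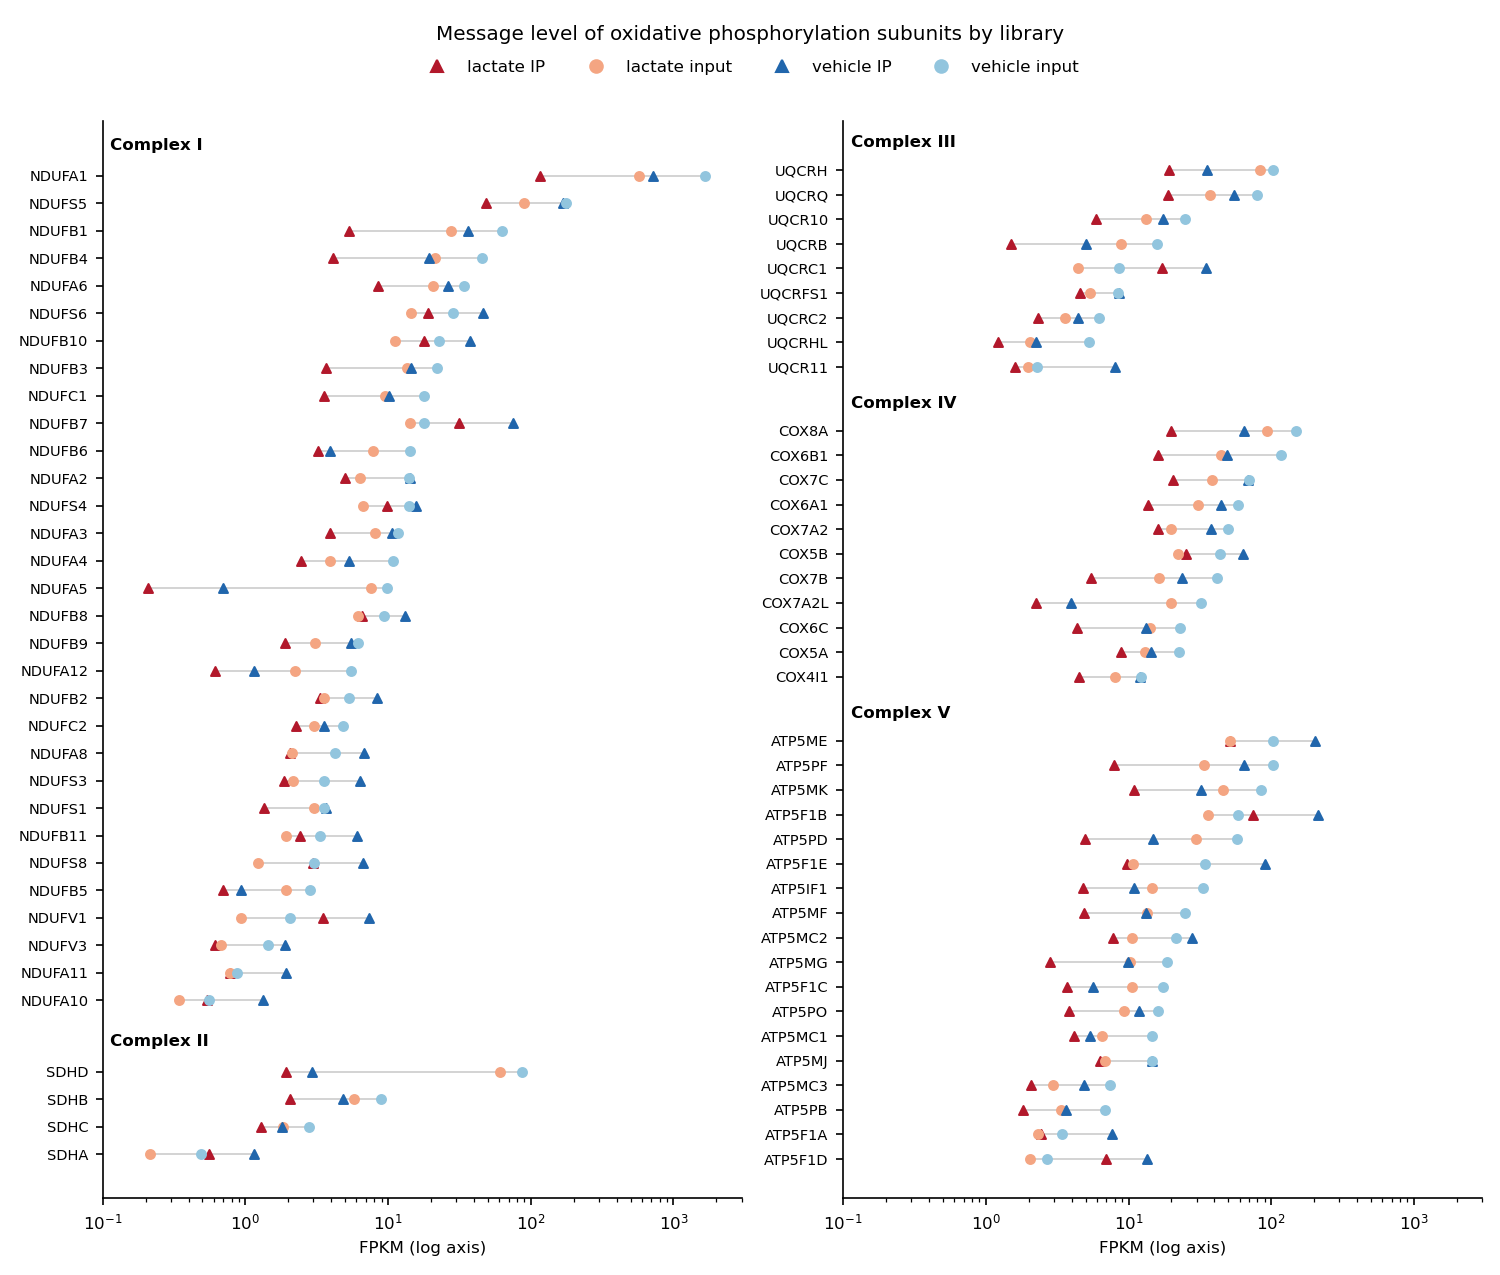
FPKM (log axis) of all but 1 of the 74 members that reached FPKM 1 in at least 1 library, by complex and in order of the vehicle input; triangles are IPs, circles inputs, red lactate and blue vehicle, with 1 library each. NDUFA1 is the rightmost member in all 4 libraries, and both IP values of SDHD, NDUFA5 and COX7A2L lie well left of their input values.

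Core and catalytic subunits spanned a wide range in the inputs. The complex I core subunits NDUFS1, NDUFS3, NDUFS8 and NDUFV1 stood between FPKM 0.938 and 3.04 in the lactate input and between 2.04 and 3.54 in the vehicle input. The flavoprotein SDHA, which oxidises succinate, was at 0.216 in the lactate input and 0.489 in the vehicle input, while its membrane anchor partner SDHD was at 61.1 and 86.9. ATP5F1A, the alpha subunit of the F1 head, was at 2.32 in the lactate input and 3.41 in the vehicle input, and its partner ATP5F1B, the catalytic beta subunit, at 36.3 and 59.0. FPKM divides by gene length, which was 8703 bp for SDHA and 10908 bp for ATP5F1A, so levels of different members depend on the length the authors used.

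As reads, the 81 members held a smaller share of nuclear reads after lactate in both kinds of library. In the inputs the share was 1.291% after lactate (95% Wilson interval 1.276% to 1.305%) and 1.693% after vehicle (1.683% to 1.704%). In the IPs it was 0.9305% after lactate (0.9177% to 0.9436%) and 1.378% after vehicle (1.367% to 1.389%). Without NDUFA1 the input shares were 1.175% after lactate and 1.471% after vehicle, so the difference was there without the most abundant member.

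The share differed by complex. Complex II held 0.0125% of nuclear reads in the lactate IP and 0.0904% in the lactate input, and 0.0108% in the vehicle IP and 0.0872% in the vehicle input, since SDHD gives most of its input reads. Complex V held 0.353% in the lactate IP and 0.346% in the lactate input, and 0.604% in the vehicle IP and 0.485% in the vehicle input. It was the single complex whose share in an IP was above that in its input. Mitochondrially encoded messages also held a smaller share of all reads after lactate, 0.353% in the lactate IP and 0.457% in the vehicle IP, and 22.75% in the lactate input and 26.72% in the vehicle input, but the members' reads were lower by more. There were 84.2 of their reads per member read in the lactate input and 50.5 in the vehicle input, and 2.73 in the lactate IP and 1.10 in the vehicle IP. The ratio was thus higher after lactate in both the inputs and the IPs, and far lower in the IPs than in the inputs.

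**Figure D2:**
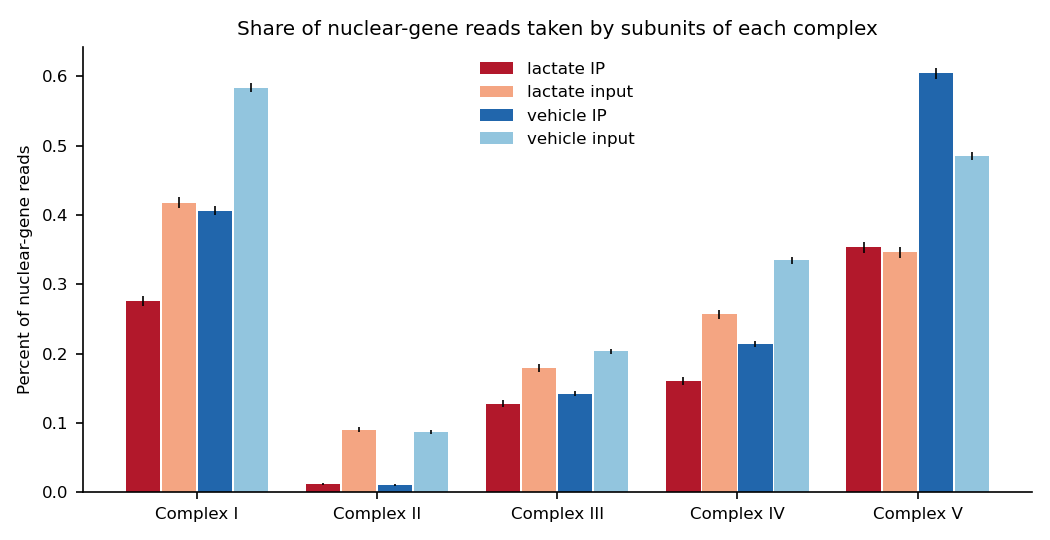
Percent of nuclear-gene reads taken by the members of each complex in the lactate IP, lactate input, vehicle IP and vehicle input, with 95% Wilson intervals that cover counting error only. The lactate bar is below the vehicle bar of the same kind for complexes I, III, IV and V, and the IP bars of complex II are near 0.

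The first comparison describes the messages in the cells, by setting the lactate input against the vehicle input. Most members were lower after lactate relative to the median gene: of 71 measured, 61 lay below it and 10 above, with a member median of −0.38. At 2-fold, 3 members were lower and 0 higher, or 4.23% of the members, where 1.36% of all 6766 genes were called lower and 2.68% higher (0.144% each way among protein-coding genes). The 3 were ATP5F1E, the epsilon subunit in the central stalk of ATP synthase, ATP5PF in its peripheral stalk, and NDUFA1. They made up 3 of the 8 protein-coding genes called lower, beside LAMTOR2, LGALS1, SNRPG, TIMM8B and UBL5. Reads gave the same picture, with the interval wholly below 0 for 44 members, wholly above for 3 and across 0 for 24.

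ATP5F1E had FPKM 10.8 in the lactate input and 34.5 in the vehicle input, a log2 difference from the median gene of −1.16 (interval −1.27 to −1.02 on reads). It was 3rd lowest of 5562 protein-coding genes. ATP5PF had 34.1 in the lactate input and 102 in the vehicle input, or −1.13 (−1.17 to −0.94), and was 5th lowest. NDUFA1, at the levels given above, differed by −1.09 (−1.05 to −0.93). Cytochrome c oxidase gave the next lowest members. COX6B1 was at −0.96 (−0.996 to −0.75), COX7B at FPKM 16.4 in the lactate input and 42.0 in the vehicle input and −0.87, and COX7A2 at 19.9 and 50.2 and −0.86. All 11 measured members of complex IV lay below the median gene.

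A few members lay above the median gene, and none of them by as much as 2-fold. UQCR11, a small subunit of complex III, had FPKM 1.97 in the lactate input and 2.28 in the vehicle input (0.28 from the median gene, interval −0.22 to 0.85). NDUFS1, the largest subunit of complex I and the carrier of several of its iron-sulphur clusters, had 3.04 in the lactate input and 3.53 in the vehicle input, or 0.27 (0.15 to 0.50). ATP5F1D, the delta subunit, stood at 0.15, NDUFB7 at 0.12 and UQCRH at 0.12. Only NDUFS1, UQCRH and NDUFA5 had an interval wholly above 0. NDUFS1 and ATP5F1E therefore differed from each other in opposite directions within the same pair of libraries, by more than their counting intervals.

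By complex, the median input change was −0.28 for complex I (30 measured members), −0.07 for complex II (3), −0.34 for complex III (9), −0.41 for complex IV (11) and −0.48 for complex V (18). The F1 head was mixed: ATP5F1A stood at 0.02, ATP5F1B at −0.25, ATP5F1C at −0.26, ATP5F1D at 0.15 and ATP5F1E at −1.16. ATP5IF1, which blocks the synthase when it runs backwards, stood at −0.70. In complex III the core proteins UQCRC1, UQCRC2 and the Rieske protein UQCRFS1 were at −0.40, −0.22 and −0.13, and in complex II SDHB, SDHC and SDHD were at −0.13, 0.01 and −0.07. Complex II shares its members with the tricarboxylic acid cycle, whose other 9 measured enzymes had a median of 0.00.

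Other lists give the frame for these values. The median was −0.02 over 36 assembly factors of the complexes, −0.21 over 65 mitochondrial ribosomal proteins, −0.26 over 78 cytosolic ribosomal proteins, −0.22 over 31 proteasome subunits and −0.32 over 17 import components. No gene of the assembly, ribosomal and proteasome lists was called in either direction, and 1 import gene was lower. NDUFAB1, CYC1 and CYCS, the subunits and carrier outside the naming rule, had a median of −0.26. The 13 mitochondrially encoded messages lay at 0.19, with 10 of 13 above the median gene, and at −0.24 on the deposited FPKM without centring. The lower values were thus shared, to a smaller size, by import, ribosomal and proteasome genes, and were not seen in the median of the assembly factors. Of these lists the import components lay closest to the members. Over the 71 members Spearman's rho of the change was 0.25 with gene length (0.12 over the 58 under 5000 bp) and −0.53 with FPKM in the vehicle input, which is also the denominator of the ratio. Over 5549 protein-coding genes these were 0.23 and −0.44. These are descriptions over genes that share the same libraries, and their part in the result was not tested. The 23 shortest members (421 to 1922 bp) had a median of −0.48 and the 23 longest (3396 to 16591 bp) one of −0.22. The call at 2-fold depended on the scale, with 2 members lower under median ratios, 1 under equal totals of nuclear reads and 16 on the deposited FPKM without centring.

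**Figure D3:**
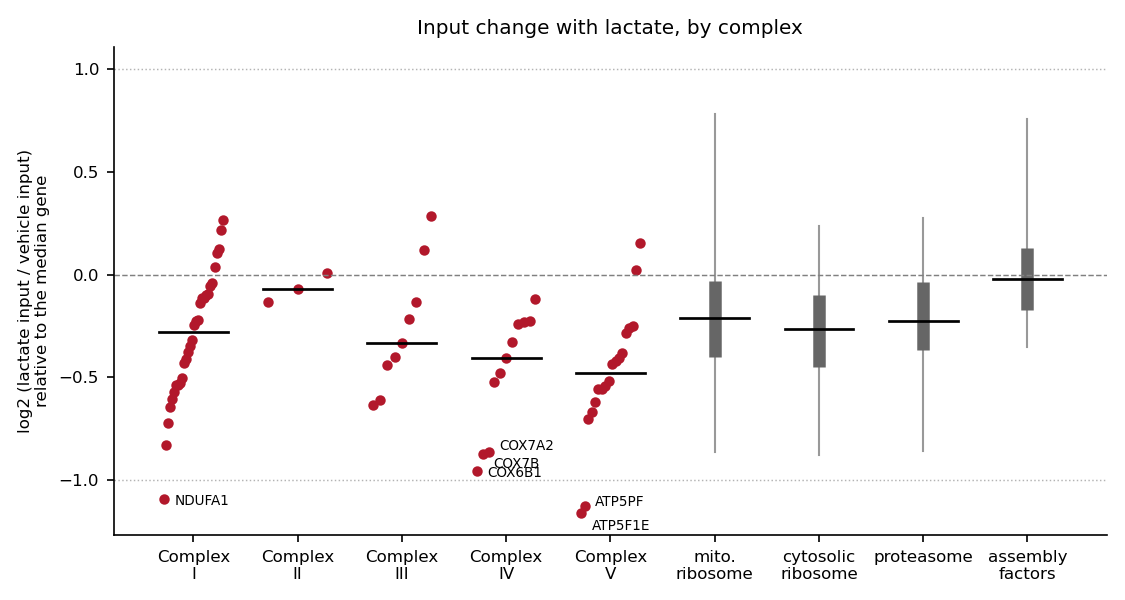
Log2 ratio of lactate input over vehicle input relative to the median gene, with each dot a member and each bar the median of its complex; for 4 other gene lists the thin line gives the range, the thick line the middle part between the quartiles and the bar the median. ATP5F1E, ATP5PF and NDUFA1 lie below the dotted line at −1, and all dots of complex IV lie below 0.

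The next pair of comparisons asks which members came down with NSUN2, by setting each IP against its own input. In lactate cells 70 members were measured, with a median of −0.57, and 54 lay below the median gene. At 2-fold, 24 were lower (34.3%) and 5 higher (7.14%), where 20.5% of 7170 genes were called lower and 19.3% higher (19.9% and 17.0% among protein-coding genes). In vehicle cells 74 were measured, with a median of −0.84, and 53 lay below the median gene. There 29 were lower (39.2%) and 6 higher (8.11%), where 23.9% of 9099 genes were called lower and 12.4% higher (23.6% and 11.3% among protein-coding genes). Members were thus called lower more often, and higher less often, than the genes at large in both kinds of cells, and no test of that difference was made.

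Sides and calls were compared between both conditions, which share no library. Of 70 members measured in both, 51 lay below the median gene in both, 15 above in both and 4 on opposite sides, or 72.9%, 21.4% and 5.71%, against 47.3%, 43.4% and 9.21% of 5842 protein-coding genes. At 2-fold, 21 were lower in both (30%, against 18.5% of those genes) and 5 higher in both (7.14%, against 10.8%). The 5 higher in both were UQCRC1, ATP5F1D, ATP5F1B, NDUFV1 and NDUFB7, and UQCR11 was higher in vehicle cells only.

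SDHD, the membrane anchor of complex II that helps to bind ubiquinone, had the lowest recovery of all members on FPKM + 1. Its FPKM was 1.94 in the lactate IP and 61.1 in the lactate input (82 and 1905 reads), and 2.95 in the vehicle IP and 86.9 in the vehicle input (112 and 4272 reads). Relative to the median gene that was −4.31 in lactate cells (interval −5.03 to −4.38 on reads) and −4.92 in vehicle cells (−5.61 to −5.06). It was 15th lowest of 5892 protein-coding genes in lactate cells and 14th lowest of 7363 in vehicle cells, the mitochondrially encoded messages included. The other subunits of the complex did not share this. SDHB, the iron-sulphur subunit, was at −1.04 in lactate cells and −1.22 in vehicle cells, SDHC, the second anchor, at −0.22 and −0.88, and SDHA at 0.09 in vehicle cells, below the minimum in lactate cells.

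NDUFA5, an accessory subunit of the matrix arm, came next. It had FPKM 0.206 in the lactate IP and 7.58 in the lactate input, and 0.7001 in the vehicle IP and 9.75 in the vehicle input. The log2 difference was −2.73 in lactate cells and −3.10 in vehicle cells on FPKM + 1, and larger on reads, where the added 1 has no part (−4.92, interval −5.39 to −4.48, and −4.25, interval −4.51 to −3.99). In lactate cells its read value was below that of SDHD (−4.70), with intervals that overlap. COX7A2L, which joins complexes III and IV, had 2.26 in the lactate IP and 19.9 in the lactate input, and 3.93 in the vehicle IP and 32.1 in the vehicle input, or −2.59 and −3.19. ATP5PD, the d subunit of the peripheral stalk, was at −2.27 in lactate cells and −2.33 in vehicle cells. In lactate cells NDUFA1 (−2.20) and NDUFB1 (−2.08) completed the 6 lowest, and in vehicle cells NDUFB6 (−2.07) and NDUFA12 (−2.04) did. These lowest members come from complexes I, II, IV and V. The iron-sulphur subunit SDHB and the complex III members UQCRB and UQCRH were also at least 2-fold lower in both kinds of cells.

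The best recovered members came from complexes I, III and V. UQCRC1, the core I protein of complex III, had FPKM 17.1 in the lactate IP and 4.41 in the lactate input, and 35.0 in the vehicle IP and 8.62 in the vehicle input. That was 1.84 above the median gene in lactate cells (interval 1.99 to 2.49 on reads) and 1.46 in vehicle cells (1.43 to 1.72). ATP5F1B, the catalytic beta subunit, had 74.8 in the lactate IP and 36.3 in the lactate input, and 212 in the vehicle IP and 59.0 in the vehicle input, or 1.12 (1.22 to 1.44) and 1.39 (1.33 to 1.47). ATP5F1D was at 1.49 in lactate cells and 1.55 in vehicle cells, and NDUFB7, a disulphide-rich accessory subunit, at 1.18 and 1.58. NDUFV1, which binds NADH and FMN at the entry of electrons, had 3.52 in the lactate IP and 0.938 in the lactate input, and 7.35 in the vehicle IP and 2.04 in the vehicle input, or 1.32 and 1.02. NDUFS8, an iron-sulphur core subunit, was at 0.93 in lactate cells and 0.49 in vehicle cells. Core subunits did not all lie high, as NDUFS1 was at −0.68 in lactate cells and −0.40 in vehicle cells, and UQCRC2, the partner of UQCRC1, at −0.37 and −0.85.

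The medians by complex were −0.40 for complex I, −1.04 for complex II, −0.37 for complex III, −1.01 for complex IV and −0.49 for complex V in lactate cells. In vehicle cells they were −0.46, −1.05, −0.95, −1.07 and −1.04 in the same order. Complex IV had no member called higher in either kind of cells, and 6 of its 11 measured members were lower in each. COX8A was at −2.08 in lactate cells and −1.64 in vehicle cells, COX6C at −1.41 and −1.18 and COX7B at −1.34 and −1.25, while COX5B, which binds zinc, was at 0.27 and 0.07. The cytosolic ribosomal proteins had like medians, −0.88 in lactate cells and −0.84 in vehicle cells, with 34 genes lower in each. The mitochondrial ribosomal proteins were at −0.26 and −0.40, proteasome subunits at 0.18 and 0.07, assembly factors at −0.51 and −0.52 and tricarboxylic acid cycle enzymes at 0.41 and 0.44. All 13 mitochondrially encoded messages were lower, with medians of −5.99 in lactate cells and −6.24 in vehicle cells. Recovery went with the FPKM in the vehicle input, with rho of −0.52 over 70 members in lactate cells and −0.40 over 74 in vehicle cells, against −0.57 and −0.50 over protein-coding genes, where in vehicle cells that FPKM is itself part of the ratio; its part in the result was not tested. With equal totals of nuclear reads, 15 members were lower in lactate cells and 16 in vehicle cells.

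**Figure D4:**
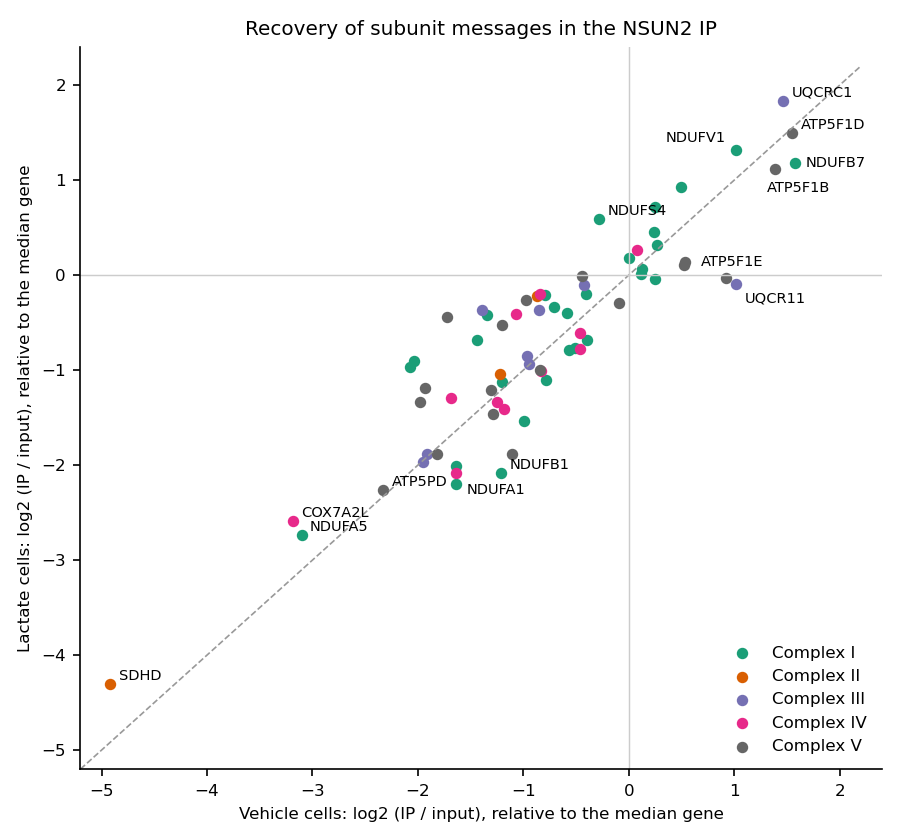
Log2 ratio of IP over input relative to the median gene in lactate cells (vertical) and vehicle cells (horizontal) for the 70 members measured in both, coloured by complex; the dashed line marks equal values. SDHD lies at the lower left, UQCRC1, ATP5F1D, ATP5F1B, NDUFV1 and NDUFB7 at the upper right, and ATP5F1E and UQCR11 well below the dashed line.

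The IPs were also set against each other, which compares the RNA recovered with NSUN2 after sodium lactate and after vehicle. Of 71 measured members 55 lay below the median gene and 16 above, with a median of −0.49. At 2-fold, 9 were lower (12.7%) and 0 higher, where 2.61% of 8366 genes were called lower and 3.66% higher (1.07% and 0.657% among protein-coding genes). The 9 were ATP5F1E, ATP5PF, ATP5ME, NDUFA1, NDUFB1, NDUFB4, NDUFS5, COX7B and UQCR11. The 9 members stood among 72 protein-coding genes called lower.

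ATP5F1E had FPKM 9.74 in the lactate IP and 90.2 in the vehicle IP (752 and 6245 reads), or −2.34 from the median gene (interval −2.32 to −2.09 on reads). It was the lowest of 6701 protein-coding genes. ATP5PF had 7.87 in the lactate IP and 64.0 in the vehicle IP, or −2.13 (−2.22 to −1.82), and was 2nd lowest. NDUFA1, at 116 in the lactate IP and 721 in the vehicle IP, was at −1.88 and 6th lowest, and NDUFB1, at 5.32 and 36.4, at −1.82 and 7th lowest. The membrane-arm subunit NDUFB4 followed at −1.25 and ATP5ME at −1.20. The same 3 members, ATP5F1E, ATP5PF and NDUFA1, were thus the lowest in the IPs and in the inputs, with a larger difference in the IPs.

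No member was called higher. Among members with at least 50 reads in a compared library the highest were ATP5MC1, a gene for the c-ring of ATP synthase, with FPKM 4.15 in the lactate IP and 5.39 in the vehicle IP (0.43 above the median gene, interval 0.32 to 0.94), NDUFA12 at 0.34, SDHD at 0.32, SDHA at 0.27, NDUFC2 at 0.26 and ATP5F1C at 0.26. Their deposited FPKM was lower after lactate all the same, as the median gene was. SDHA (FPKM 0.552 in the lactate IP and 1.147 in the vehicle IP) and NDUFA12 (0.6165 and 1.143) were near the added 1. That shrinks their ratio and so lifts them against a median gene at −0.74. Ratios of abundant members are shrunk less, which places those members lower against the same median gene. Under median ratios of nuclear genes the complex II median between the IPs was 0.130, against 0.295 here. The median of all members was −0.317, against −0.490 here. Of 68 members measured in inputs and IPs, 49 lay below the median gene in both comparisons, 1 above in both, 12 below in the inputs only and 6 below in the IPs only. The share below in both was 72.1%, against 33.7% of 4850 protein-coding genes measured in both. The 1 above in both was SDHC, at 0.44 in the IPs and 0.01 in the inputs, on 37 and 47 reads in the lactate and vehicle IP. Its FPKM was 1.835 in the lactate input and 2.804 in the vehicle input, so its side there depends on the added 1. Sides of other low members can depend on it too. The lists beside them had medians of −0.32 (mitochondrial ribosomal proteins), −0.42 (cytosolic ribosomal proteins), −0.22 (proteasome), −0.38 (import), 0.03 (assembly factors) and −0.23 (tricarboxylic acid cycle), against −0.49 for the members. The change between the IPs had a Spearman's rho of −0.58 with FPKM in the vehicle input over the 71 members. Over 6688 protein-coding genes that rho was −0.39, and its part in the result was not tested. With equal totals of nuclear reads 5 members were lower, and on the deposited FPKM without centring 43 were.

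**Figure D5:**
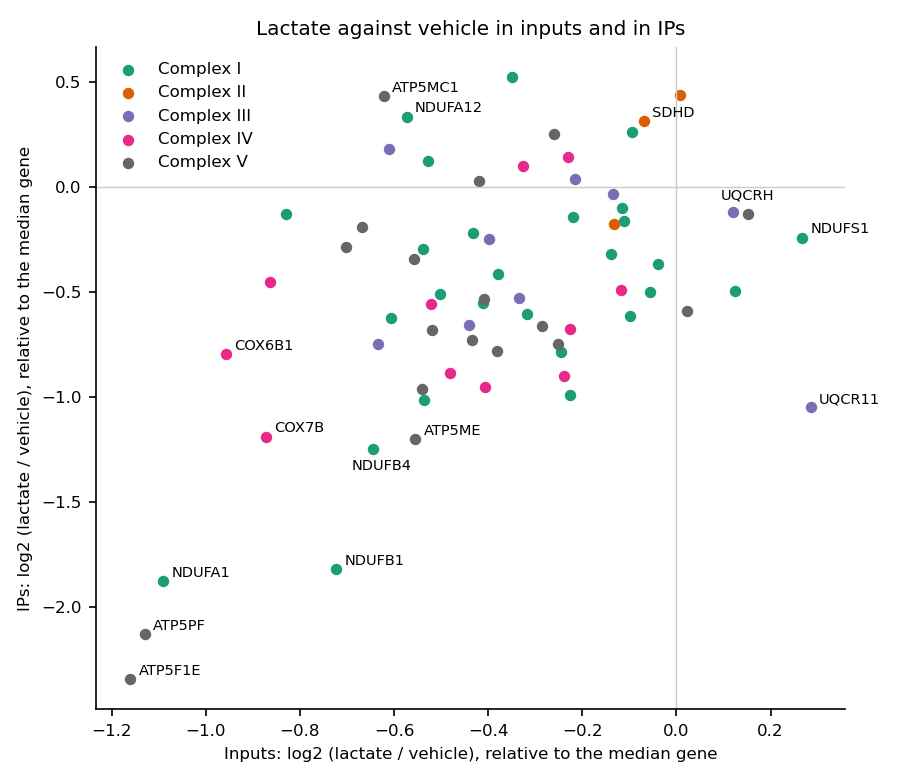
Log2 ratio of lactate over vehicle relative to the median gene in the IPs (vertical) and in the inputs (horizontal) for the 68 members measured in both, coloured by complex. ATP5F1E, ATP5PF and NDUFA1 lie at the lower left, and UQCR11 lies at the right with a value below −1 in the IPs.

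The last comparison subtracts the recovery in vehicle cells from that in lactate cells, and asks whether a message was recovered with NSUN2 differently after lactate. It shares the libraries of the comparisons above and was centred on its own median gene (−0.36 over 9445 genes), so a value is 0.18 below the plain difference of the recoveries printed above. Members as a group lay near the median gene, with a median of −0.08 over 74 and 34 above against 40 below. At 2-fold, 3 were lower (4.05%) and 1 higher (1.35%), where 3.28% of 9445 genes were called lower and 5.11% higher (0.782% and 1.47% among protein-coding genes), so the share of members lower was near that of all genes and above that of protein-coding genes, with no test made. By the plain difference 1 member was lower (UQCR11, −1.11) and 4 were higher (ATP5MC1, NDUFA12, NDUFB6 and UQCRHL), where 2.1% of all genes were lower and 7.28% higher, and the member median was 0.11. The intervals on reads lay wholly below 0 for 22 members, wholly above for 22 and across 0 for 30.

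UQCR11 was lowest at −1.29 (interval −2.23 to −0.89 on reads), with FPKM 1.602 in the lactate IP and 1.97 in the lactate input, and 8.01 in the vehicle IP and 2.28 in the vehicle input. Only the vehicle IP stood apart for this gene, on 52, 47, 233 and 86 reads in the same libraries. ATP5F1E followed at −1.14 (−1.15 to −0.82; plain difference −0.96), with 9.74 in the lactate IP and 10.8 in the lactate input, and 90.2 in the vehicle IP and 34.5 in the vehicle input. NDUFB1 was at −1.05 (−1.30 to −0.79; plain difference −0.87), ATP5PF at −0.96, NDUFA1 at −0.74 and NDUFB3 at −0.72. ATP5MC1 was the 1 member called higher, at 1.10 (0.95 to 1.71), with 4.15 in the lactate IP and 6.502 in the lactate input, and 5.39 in the vehicle IP and 14.6 in the vehicle input. NDUFA12 at 0.95, NDUFB6 at 0.92, UQCRHL at 0.84 and NDUFA4 at 0.75 came next. By complex the median ran from −0.27 in complex IV to 0.31 in complex II, whose 4 members all lay at or above the median gene. Under median ratios and under equal totals of nuclear reads 1 member was lower.

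Several of these members have pseudogenes whose reads can be mixed with theirs, and the treatment of reads that match several places was, in the sources used here, not given. For 33 members the table held 59 pseudogenes, and 8 members had one at 20% or more of their own FPKM in the vehicle input. ATP5F1EP2 had FPKM 8.86 in the lactate IP, 9.75 in the lactate input, 49.9 in the vehicle IP and 12.0 in the vehicle input, high in the vehicle IP as its parent ATP5F1E was. NDUFA4P1 exceeded NDUFA4 in the vehicle input, at 21.2 against 10.8, and UQCRBP1 and COX6A1P2 stood at 85.7% and 73.9% of their parents there. SDHA, NDUFA9, NDUFV2 and NDUFB4 were the other members concerned, and values of these 8 are uncertain. ATP5PF and NDUFA1 were not among them, as ATP5PFP1 stood at 0.688% of the FPKM of ATP5PF in the vehicle input, with 4 reads against 3627. The 20% limit is on FPKM, which depends on length. By reads in the vehicle input the 8 ran from ATP5F1EP2, with 33 against 3087 for ATP5F1E, to NDUFV2P1, with 86 against 4 for NDUFV2. The retrocopy UQCRHL does not carry a pseudogene symbol and was not part of this search. It had 203 reads in the vehicle input against 2450 for UQCRH, and its values are uncertain in the same way.

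Peaks of the authors' lists, called in each IP against its own input, place the recovered RNA within genes. The lactate list had 67 peaks in 33 members and the vehicle list 128 peaks in 46 members, among 48104 and 95785 peaks in all. Of the members measured in the same cells, 38.6% had a peak in the lactate list and 55.4% in the vehicle list, where 78.9% and 90.2% of protein-coding genes had one. Peaks with q of at most 0.05 left 18.6% of members in the lactate list and 40.5% in the vehicle list, against 65.1% and 83.1% of protein-coding genes. Peaks with a fold of at least 4 left 12.9% and 25.7% of members, against 53.0% and 67.9%, and peaks in an exon or UTR 25.7% and 45.9%, against 66.8% and 83.3%. Members thus had peaks less frequently than protein-coding genes at large by each of these limits, a difference that was not tested. Members with a peak in both lists numbered 31, or 93.9% of those in the lactate list and 67.4% of those in the vehicle list, where these shares were 95.4% and 78.2% over protein-coding genes. Annotation put 35 of the lactate peaks in introns, 21 in exons and 11 in 3′ UTRs, and 53, 55 and 18 of the vehicle peaks, with 2 more in 5′ UTRs. By complex, the lactate list had a peak in 15 of 37 complex I genes, 4 of 4 complex II genes, 2 of 9 complex III genes, 3 of 12 complex IV genes and 9 of 19 complex V genes, and the vehicle list in 22, 4, 4, 5 and 11 in the same order. At q of at most 0.05 the lactate list kept 11, 2, 1, 0 and 4, the 2 of complex II being SDHA and SDHD, and the vehicle list 16, 4, 4, 2 and 7. These counts follow the annotation of the peaks. In the lactate list all such peaks of NDUFB2, NDUFS3, SDHD, ATP5IF1 and ATP5MC2 lay outside the RefSeq span of the gene. In the vehicle list all such peaks of SDHD did. ATP5PF and NDUFA1 had no peak in either list, though both were abundant in the IPs.

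The peaks with the highest fold, which is the authors' own value within each list, were in NDUFA10, an accessory subunit of complex I. An intron of that gene held a peak at chr2:239966856-239967169 in the lactate list (10.5-fold) and at chr2:239966831-239967275 in the vehicle list (11.001-fold), in GRCh38 coordinates on the minus strand. NDUFV1 had an exon peak at chr11:67611517-67612641 with a fold of 6.23 in the lactate list, and at chr11:67611196-67612645 with 10.3 in the vehicle list. NDUFB2, SDHA and NDUFS1 followed in the lactate list, at 5.83, 4.87 and 4.28, and NDUFV3, NDUFB2 and UQCRC2 had folds of 10.3, 9.71 and 8.49 in the vehicle list. NDUFS1 was tied in the lactate list, as 4.28 was also the highest fold of NDUFS3, NDUFS4, SDHD, ATP5IF1, ATP5MC2 and UQCRC1 there. The members well recovered at gene level had exon or 3′ UTR peaks in both lists, among them UQCRC1, ATP5F1B, ATP5F1D and NDUFB7. Peaks and gene-level recovery come from the same IP and input libraries and are not independent. SDHD had 2 lactate and 4 vehicle peaks, annotated as intronic, and all 6 lay outside the span of the gene in RefSeq (chr11:112086873-112095794). In all, 26 of 194 member peaks lay outside the RefSeq span of the gene they were annotated to, among them the highest peaks of NDUFB2 in both lists and that of NDUFV3 in the vehicle list.

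In the authors' deposited table comparing the IPs peak by peak, M is the log2 ratio of the normalized read density in the lactate IP over that in the vehicle IP. The table held 166 peaks in 48 members, with a median M of −0.45, against −0.50 over all 116484 peaks. At a summed density of at least 20, a limit set for this work, 53 member peaks had a median of −0.39 and all 21019 peaks one of −0.15. In the authors' deposited table the lowest of those 53 was an exon peak of ATP5F1E at chr20:59030137-59030502, with M of −2.05 and a density of 200 in the lactate IP and 830 in the vehicle IP. An exon peak of NDUFS3 stood at −1.93 and a 3′ UTR peak of NDUFS1 at −1.94. Both were found in the vehicle list only, with folds over input of 1.35 and 1.53 in the same order. Neither met the q limit used above for the peak lists, while the exon peak of ATP5F1E did. In the deposited table the 3′ UTR peak of ATP5F1E had M of −1.58, and the UQCR11 peaks, both in the 3′ UTR, −1.58 and −1.24. In the same deposited table the common exon peaks of ATP5F1B were at 0.20 and 0.16, those of UQCRC1 at 0.17 and 0.23 and that of NDUFV1 at 0.19, and another 3′ UTR peak of NDUFS1 was highest of the 53 at 0.35. A further exon peak of ATP5F1B in that deposited table, found in the vehicle list only, was at −0.92. Its density was 104 in the lactate IP and 197 in the vehicle IP. The peak and gene values of ATP5F1E and UQCR11 come from the same 2 IP libraries and are not independent.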

How the data were processed

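RNA of the lactate IP, lactate input, vehicle IP and vehicle input was read from SMART-Seq v4 libraries, per the labels' protocols, with 1 library per group. The authors deposited FPKM per gene for each library. Their peak lists, 1 per condition, hold a fold enrichment ratio, p-values, q-values and the −log10 of both, per the file headers. Their deposited table of peaks between the IPs holds log2 M and A values and a normalized read density signal, whose normalization was not given in the sources used here. Its deposited P column was treated as a score of unknown meaning and not used. Per the submitters' processing notes, the tools were HOMER 4.11.1, DiffBind, MACS2 2.2.7.1, HISAT2 2.1.0, bedtools 2.29.2 and fastp 0.20.1, with the build GRCh38; the gene counter, use of strand and of multiply matching reads, and annotation release were not given in the sources used here.

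Whole reads were recovered from FPKM: 72387 of 72387 values came out whole within 1e-06 reads. Gene lengths were fitted to the same values, so this cannot show a factor shared by a gene's length and all its read counts. For MT-ND4 the fitted length was 689 bp against 1378 bp in RefSeq, and it was corrected. Lengths of the members were not checked in this way, so their read counts may be too low by such a factor. Ratios used log2(FPKM + 1), FPKM of at least 1 in a compared library, and centring on the median of all genes tested; 1 is added to every FPKM, which understates changes of low genes. Intervals at 95% are exact (Clopper-Pearson) for read ratios between a pair of libraries and Wilson for shares. For the difference of recoveries they are a normal approximation from the read counts of all libraries. All of them cover counting error only, as there were no molecular identifiers. Where no read was seen, the upper limit is 3 reads, which is 1.97e-05% of the lactate IP, 2.68e-05% of the lactate input, 2.2e-05% of the vehicle IP and 1.7e-05% of the vehicle input. The script was tested on simulated data.

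Named in each comparison were the 6 highest and 6 lowest members with at least 50 reads in a compared library, the 5 of highest vehicle input FPKM, the complex II genes, isoforms of complex IV, and the core, F1 and inhibitor genes; other members were named after their values were seen, and 1 member, kept in the counts and medians, is not reported here by name. The members and lists were chosen with earlier results of these data known. Python 3.11.15, pandas 2.3.3, numpy 2.4.6, scipy 1.17.1 and matplotlib 3.10.9 were used. Alternatives were other pseudocounts, minimums, scalings and peak limits, and, added after seeing the data, leaving out NDUFA1 or the members with an abundant pseudogene, and the plain difference of recoveries.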

Additional observations from a re-analysis of the deposited data

Results flagged for a closer look

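In 4 members the recovery with NSUN2 lay on opposite sides of the median gene in lactate and vehicle cells. With 1 library per group these differences were not tested. Each difference is given as the plain difference of the recoveries and after centring on its own median gene. ATP5F1E stood at −0.04 in lactate cells and 0.92 in vehicle cells, a plain difference of −0.96 on the log2 scale and −1.14 after centring. UQCR11 stood at −0.09 in lactate cells and 1.01 in vehicle cells (−1.11 plain, −1.29 centred), on 52 reads in the lactate IP and 233 in the vehicle IP. NDUFS4, an accessory subunit of the NADH-binding part of complex I, stood at 0.59 in lactate cells and −0.28 in vehicle cells (0.88 plain, 0.69 centred), with read intervals of 0.47 to 1.23 in lactate cells and −0.53 to −0.03 in vehicle cells. NDUFS3, a core subunit of complex I, stood at −0.04 in lactate cells and 0.25 in vehicle cells (−0.29 plain, −0.47 centred). Only NDUFS4 had read intervals wholly on opposite sides of 0 in the 2 kinds of cells.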

How the results depend on the processing

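The member median kept its sign under every alternative run but 1: for the difference of recoveries it was 0.105 by the plain difference, an alternative chosen after seeing the data. It ranged between −0.809 and −0.289 for the inputs, −0.733 and −0.228 for IP over input in lactate cells, −1.059 and −0.349 for that in vehicle cells, −1.233 and −0.223 for the IPs and −0.432 and 0.105 for the difference of recoveries. Of 176 alternative values of 18 results 130 stayed close to the reported one and 46 moved. Without a minimum FPKM the median was −0.596 for the inputs, −0.432 for vehicle cells and −0.824 for the IPs. On the deposited FPKM without centring it was −0.809 for the inputs, −0.396 for vehicle cells, −1.233 for the IPs and −0.432 for the difference, which the shift of all genes accounts for by construction. With equal totals of nuclear reads it was −0.228 in lactate cells, −0.349 in vehicle cells and −0.223 for the IPs, and in vehicle cells it was −1.059 with 0.1 added and −0.467 with 5 added. Members lower between the inputs (3) numbered 9 without a minimum, 1 at FPKM of at least 5, 16 uncentred and 1 with equal totals. In lactate cells 24 lower became 14 with 5 added, 12 at FPKM of at least 5 and 15 with equal totals, and 5 higher became 1 with 5 added and 8 with equal totals. In vehicle cells 29 lower became 15 with 5 added, 18 without a minimum, 16 uncentred and 16 with equal totals. Between the IPs 9 lower became 15 with 5 added, 35 without a minimum, 4 at FPKM of at least 5, 43 uncentred and 5 with equal totals. For the difference, 1 higher became 2 with 0.1 added, 0 with 5 added, 0 without a minimum, 3 at FPKM of at least 5 and 0 uncentred, and 3 lower became 1, 5 and 6 with 5 added, without a minimum and uncentred, and 1 under median ratios or equal totals; by the plain difference 4 were higher and 1 lower. Members with a peak (33 lactate, 46 vehicle) numbered 18 in the lactate list at q of at most 0.05, and 12 in the lactate list and 20 in the vehicle list at a fold of at least 4. The median M was −0.309 with 1 peak per gene. The cause of these other moves was not tested. No paired analysis was possible because each group had 1 library. Precision is limited by depth: 69 members had at least 50 reads in the lactate IP, 68 in the lactate input, 72 in the vehicle IP and 74 in the vehicle input.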

Other observations

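Regulators of mitochondrial biogenesis, a list fixed beside the members, had a median of −0.07 between the inputs (lactate over vehicle, 6 genes) and 0.16 between the IPs (6 genes), with 0 genes called in either direction in either comparison. The mitochondrially encoded messages lay above the median gene in 13 of 13 cases between the IPs, with a median of 0.41, and in 10 of 13 between the inputs, while most nuclear members lay below it in both. On the deposited FPKM without centring their medians were −0.33 between the IPs and −0.24 between the inputs.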
